A study of Mus musculus with 12 samples.

Results

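An alternative 5′ splice site part is the stretch of an exon that lies between competing 5′ splice sites: it is kept in the RNA when the downstream site is used and removed with the intron when the upstream one is used. The authors' deposited table divides each gene into exon parts and gives every part a class. All rows of the class A5PSS, which the header defines as alternative 5′ splice site, were taken: 3117 of 138745 parts (2.25%), under 2575 of 15139 gene names. The cells were V6.5 mouse embryonic stem cells (C57Bl/6-129 background) of the genotype Cdk13-/-; Cdk13 Tg+, in which the only source of Cdk13 was a tagged transgene that doxycycline switches on. Polyadenylated RNA came from cells taken 48 h after doxycycline was withdrawn, from cells taken 72 h after it was withdrawn, and from cells kept in 1 ug/mL of the drug. Each group had 4 libraries, 2 from clone 11-8 and 2 from clone 14-1, so each group rests on 2 clonal lines. Every library carried the same knockout and the same transgene, and no group lacking the transgene was taken off the drug, so the loss of Cdk13 and the removal of doxycycline cannot be told apart. RNA integrity numbers averaged 9.05 ± 0.17 at 48 h, 9.05 ± 0.17 at 72 h and 9.10 ± 0.14 in doxycycline (SD, n = 4 each).

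A 5′ splice site, or donor, marks the boundary between an exon and the intron after it. It is first bound by the U1 small nuclear ribonucleoprotein, whose RNA pairs with the last bases of the exon and the first bases of the intron, and is later handed to the U6 RNA of the U4/U6.U5 tri-snRNP. Almost all introns begin with GT in the DNA and a small group with GC, and where several sites compete, SR and hnRNP proteins and the speed of transcription are known to affect which is used. CDK13, which pairs with cyclin K, adds phosphates to the tail of elongating RNA polymerase II.

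The A5PSS parts were mostly narrow. Their median width was 75 bases, with quartiles of 20 and 233 bases and a range from 1 to 20721 bases. The most frequent width was 4 bases, held by 177 parts (5.68%), against 1.3% of the unclassified parts, which the header describes as not classified or internal constitutive. A shift of 4 bases is the classic spacing of overlapping donors, since an intron starting GTNNGT carries the start of another donor inside it. Of the 88 parts of 4 bases whose first letters could be read, 54 opened with GT and 34 with GC, so this form does not cover them all. No A5PSS part was 3 bases wide, although 1457 unclassified parts were. Widths that keep the reading frame made up 36.6% of the A5PSS parts (1142 of 3117).

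**Figure D1:**
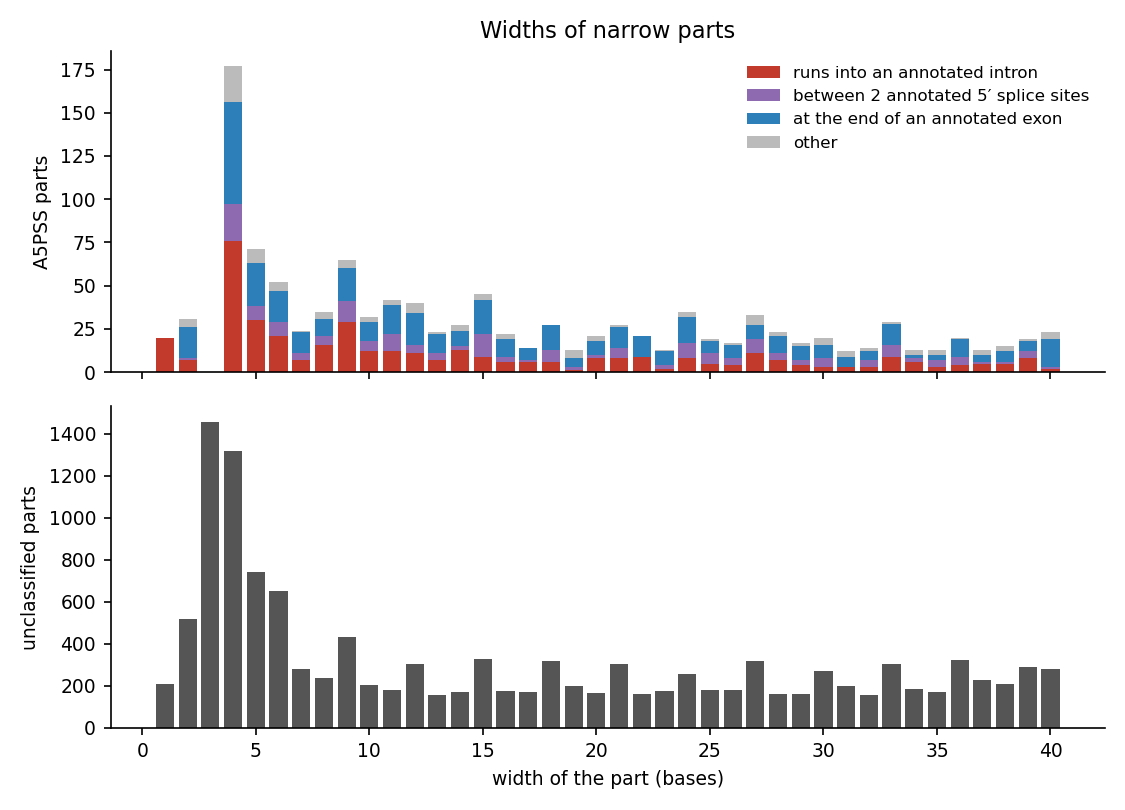
Number of parts (vertical axes) by width in bases (horizontal axis, up to 40 bases): A5PSS parts coloured by how they lie against annotated exons (top) and unclassified parts (bottom). The A5PSS parts peak at 4 bases with 177 parts and have none at 3 bases, where 1457 unclassified parts fall.

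Parts were then set against the exons of the same gene in GENCODE M21 by their widths and the distances between them, with no coordinate carried over, since the annotation is on a later build than the table. This placed 2699 parts (86.6%). The largest group, 1271 parts (40.8%), began directly after an annotated donor and ended at a position not annotated as a donor. It is called intron-side here: if kept through use of a downstream donor, these parts lengthen the exon that ends at the annotated donor. The values are of parts and not of reads across junctions. Use of a downstream donor and keeping of more of the intron therefore cannot be told apart. The next, 848 parts (27.2%), ended at an annotated donor while their upstream donor was not annotated, and is called exon-end: losing such a part shortens the annotated exon. A further 551 parts (17.7%) lay between 2 annotated donors and are called between-site parts. In 29 parts neither end was an annotated donor, and 418 (13.4%) could not be placed. Intron-side parts were the widest, with a median of 124 bases, against 91 bases for between-site and 36 bases for exon-end parts. A coding exon of some transcript overlapped 757 of the 848 exon-end parts (89.3%) and 301 of the 551 between-site parts (54.6%), but 10 of the 1271 intron-side parts (0.787%). Of the intron-side parts, 1074 (84.5%) overlapped no annotated exon at all, and 167 (13.1%) overlapped only exons of non-coding transcripts.

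The letters at the boundary were read next. The sequences below belong to 11 of the 26 parts that were called at 72 h and whose first 2 bases could be read from an annotated transcript; they were chosen after their values were seen, among parts that open with GT or GC, to show each kind. They were read from GENCODE M21 transcripts (GRCm38), 5′ to 3′ on the strand of the gene: the last 8 bases before the part are in lower case, and the part itself, up to its first 22 bases, is in capitals, so the capitals begin where an intron begins if the upstream donor is used. The positions are those of the authors' deposited table on mm9.
Gpn1 E014, intron-side, chr5:31805810-31805982, plus strand: tgaacaaaGTGAGTGGCACCAGCAGTCCGT
Psmd8 E008, intron-side, chr7:29961509-29962084, minus strand: tcgagcaaGTAAGGCTGGGCAGGGGAAGGG
Tmc6 E009, intron-side, chr11:117631062-117631782, minus strand: tcaagaagGTAACCCGGGCTGGGTGTGATG
Hnrnpk E025, between-site, chr13:58501694-58501702, minus strand: aaccaatgGTGAATTTG
Fcho1 E023, between-site, chr8:74238778-74238781, minus strand: gcaggaagGCAA
Tnfaip1 E017, between-site, chr11:78349575-78349587, minus strand: cgcggacgGTGAGAGCCAGAG
Ccnf E007, exon-end, chr17:24363629-24363668, minus strand: aagcagagGTTCGAGGATAAGTGCTATGAG
Vars E005, exon-end, chr17:35141501-35141520, plus strand: ggggccagGTCTGTCACTCAACAGCCAG
Mknk2 E017, exon-end, chr10:80134481-80134492, minus strand: cttctcagGCAGGTTCGAAG
Cpsf1 E014, exon-end, chr15:76427861-76427878, minus strand: gggaggagGTCACGTGCCGTGGGCGG
Dido1 E012, exon-end, chr2:180407936-180407950, minus strand: ctccaccgGTATCAGATTCAGAA

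Among all 26, 19 opened with GT (73.1%), 5 with GC, as in Fcho1 and Mknk2 here, and the other 2, Aim1l E002 and Prkar1b E012, with GG. Parts on chromosome 18 were left out of this reading, which leaves 2651 placed parts. Where the letters could be read, 162 of 166 intron-side parts (97.6%) and 386 of 402 between-site parts (96%) opened with GT. Among 818 exon-end parts, 675 opened with GT (82.5%) and 79 with GC. Within the same parts GT made up 5.82% of all pairs of neighbouring bases. Intron-side and between-site parts begin at an annotated donor by definition, so their GT shares follow from how they were sorted. Of these kinds, only exon-end parts have an upstream boundary that is not an annotated donor. Parts 4 bases wide opened with GT in 54 cases and with GC in 34 of 88. Each boundary was also compared, on the strand of the gene, with the classic mammalian donor of 9 letters, CAG before the boundary and GTAAGT after it; all 9-letter windows within the parts matched it in 2.22 letters on average. The upstream donor of exon-end parts matched 5.03 of 9 letters on average (698 parts). The annotated upstream donors of between-site and intron-side parts matched 5.75 (374 parts) and 5.84 (160 parts). In the 115 exon-end parts whose both boundaries could be read, which needs a transcript that runs through the intron, the upstream donor matched 4.84 letters and the downstream, annotated donor 5.88. The medians at 72 h differed little by this match: between-site and exon-end parts with at most 5 matching letters had a median log2 fold change of 0.022 (478 parts), those with 6 or 7 a median of 0.019 (360 parts) and those with 8 or 9 a median of 0.012 (6 parts), within quartiles of -0.029 and 0.081 in the first group.

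Relative use of each part was compared by the authors with DEXSeq, which models a part against the other parts of its gene. The table gives an adjusted p and a log2 fold change, in which a positive value means higher relative use after Cdk13 was lost, and holds no values per library. The depth and the spread between libraries are therefore unknown here. In bulk RNA a change in every cell and a change in some of the cells cannot be told apart. An adjusted p was given for 407 A5PSS parts (13.1%) at 48 h and for 1397 (44.8%) at 72 h, and 1720 parts (55.2%) had none at either time. Those 1720 are not tested, and nothing is said of their change. The share with an adjusted p at 72 h was 88.1% of exon-end parts, 47.7% of between-site parts and 13.4% of intron-side parts, so the medians below describe the measured members of each kind.

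At 48 h the authors' deposited table called 3 A5PSS parts at an adjusted p below 0.05, or 0.737% of the 407 tested, against 1.62% of all parts tested at that time. Of these, 2 were higher without Cdk13 (0.491%, against 0.964% of all tested parts) and 1 was lower (0.246%, against 0.633% of all). At 72 h it called 43 in 43 genes, or 3.08% of the 1397 tested, against 3.6% of all tested parts. Higher calls numbered 35 (2.51%, against 2.33% of all tested parts) and lower calls 8 (0.573%, against 1.28% of all). The share of calls was thus near or below that of the whole table. At an adjusted p below 0.01, 12 calls were left at 72 h and 1 at 48 h. The log2 fold changes had a median of 0.0086 at 48 h, against 0.0025 over all parts, and of 0.024 at 72 h, against 0.0080 over all parts. At 72 h the median was 0.029 in alternative 3′ splice site parts and 0.0057 in cassette exons.

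The kinds of A5PSS part did not share these values. Intron-side parts had a median log2 fold change of 0.162 at 72 h, with quartiles of -0.0090 and 0.385, and 123 of the 170 with a value (72.4%) were above 0. Between-site parts had a median of 0.039 (263 parts) and exon-end parts one of 0.016 (747 parts). A log2 fold change above 0.2 was found in 43.5% of the intron-side and 5.89% of the exon-end parts, against 7.85% of all parts in the table with a value. A value below -0.2 was found in 10% of the intron-side and 2.14% of the exon-end parts, against 4.24% of all. Detained introns, which are whole introns kept in otherwise spliced RNA, had a median of 0.182 at 72 h (2609 parts). An adjusted p at 72 h was given for 13.4% of intron-side parts, against 94% of detained introns and 88.1% of exon-end parts. The medians thus cover unlike shares of each kind. Whether the intron-side parts with a value were those with more reads at 72 h was not tested. Parts with an adjusted p at 72 h but not at 48 h gave medians of 0.163 in intron-side parts (168 parts), 0.028 in exon-end parts (449 parts) and 0.018 in unclassified parts (46890 parts). At 48 h only 2 intron-side parts had an adjusted p, so that time says nothing of them.

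**Figure D2:**
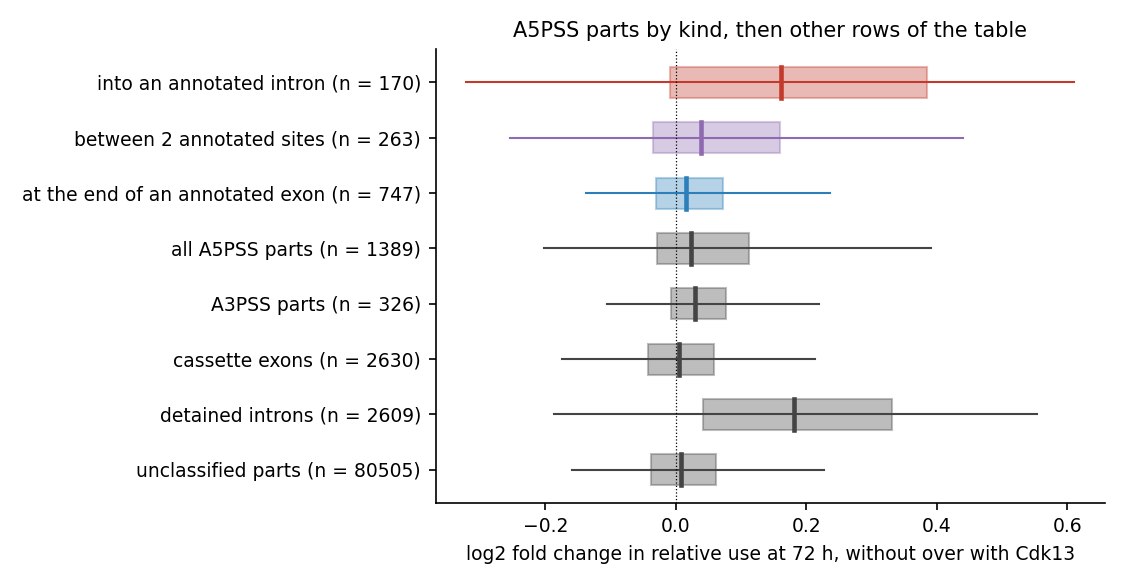
Log2 fold change in relative use at 72 h, cells without over cells with Cdk13 (horizontal axis), for the kinds of A5PSS part and for other classes of the same table; boxes span the quartiles, thick lines mark medians and thin lines run from the 5th to the 95th percentile over parts. The intron-side box, with its median at 0.162, lies beside that of detained introns at 0.182, and the exon-end box, with its median at 0.016, beside that of unclassified parts at 0.0079. The boxes cover 13.4% of the intron-side parts and 94% of the detained introns.

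Of the 170 tested intron-side parts, 12 were called (7.06%, against 3.6% of all tested parts), 11 higher and 1 lower. The share called was 15.3% in detained introns and 5.83% in unclassified parts above 300 bases. No intron-side part of 100 bases or less was called. Among the 12, 6 overlapped no annotated exon, 5 only exons of non-coding transcripts and 1, Tmc6 E009, a 3′ untranslated region. The 12 parts were 143 to 920 bases wide, none had an adjusted p at 48 h, and 10 of them had measured parts on both sides. The part rose more than the mean of its neighbours in each of those 10, by 0.41 to 0.75 on the log2 scale. Csnk1d, which encodes casein kinase 1 delta, a kinase of the circadian clock, had the lowest adjusted p of the intron-side parts in the authors' deposited table: E009, 811 bases on chr11:120829526-120830336, rose by 0.61 at 72 h (adjusted p = 9.23e-06), while the parts on either side had 0.059 and 0.082. Both of those parts were called too, and 4 of the gene's 7 tested parts were called. The largest rise among them was that of Nr4a1 E002, in the gene of an orphan nuclear receptor, at 0.83 (adjusted p = 0.00362), in the authors' deposited table. Ppp2r5d E015, in a regulatory subunit of protein phosphatase 2A, had 0.74 (adjusted p = 0.0408) in the authors' deposited table, between neighbours at 0.0079 and -0.030.

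The other 8 that rose lay in genes of varied function. Gpn1 E014 rose by 0.74 (adjusted p = 0.0481), in a GTPase gene needed to import RNA polymerase II into the nucleus, per the authors' deposited table. Pias4 E007, in a SUMO ligase gene, rose by 0.61 (adjusted p = 0.00399) between neighbours at 0.053 and -0.024, per the authors' deposited table. Mars E007, in the methionyl-tRNA synthetase gene, rose by 0.61 (adjusted p = 0.0230) in the same table of the authors. These parts stood well above the exons around them. Cdh1 E023, in the gene of E-cadherin, the adhesion molecule of embryonic stem cell colonies, rose by 0.52 (adjusted p = 0.0154), while its neighbours had -0.011 and -0.044 in the authors' deposited table. Ppp4c E012, in the catalytic subunit gene of protein phosphatase 4, rose by 0.45 (adjusted p = 0.0496), and Psmd8 E008, in a proteasome lid gene, by 0.39 (adjusted p = 0.0113), per the authors' deposited table. Fam129c E015 rose by 0.59 (adjusted p = 0.0218) and Tmc6 E009, in a transmembrane channel-like gene, by 0.41 (adjusted p = 0.0117), per the authors' deposited table. The single intron-side part that fell was Hsf2bp E014, in the gene of a protein that binds BRCA2 in meiosis, with -0.42 (adjusted p = 0.0452) in the authors' deposited table.

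**Figure D3:**
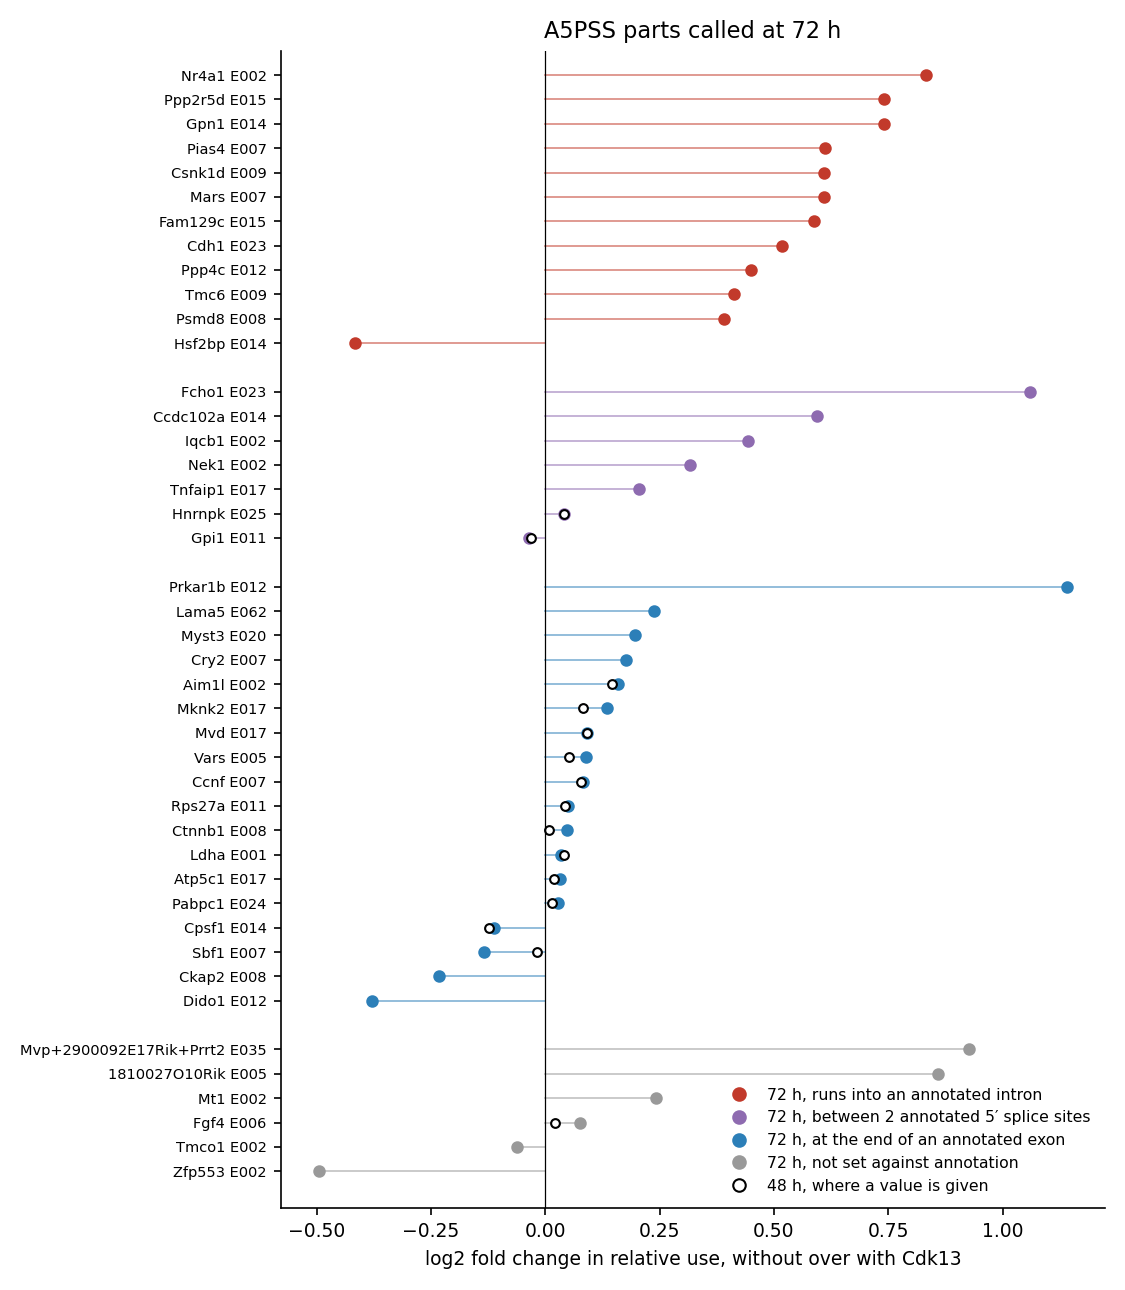
Log2 fold change in relative use, cells without over cells with Cdk13 (horizontal axis), of the 43 A5PSS parts called at 72 h, by kind (filled points) and at 48 h where the table gives a value (open points). The intron-side parts run from -0.42 to 0.83 and have no 48 h value, while most exon-end parts lie within 0.25 of 0.

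**Figure D4:**
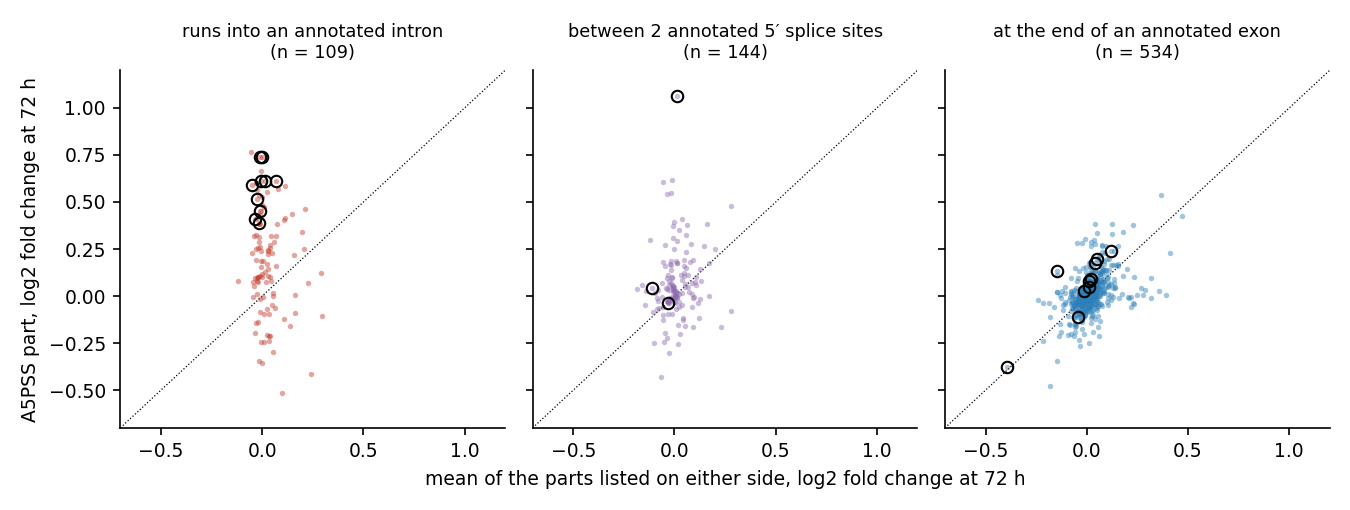
Log2 fold change at 72 h of each A5PSS part (vertical axis) against the mean of the parts listed before and after it (horizontal axis), cells without over cells with Cdk13, one panel for each kind; circles mark called parts and the dotted line marks equal values. Called intron-side parts sit 0.41 to 0.75 above their neighbours, and called exon-end parts from 0.069 below to 0.28 above them.

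The same comparison with neighbours also gave unlike values for the measured parts of each kind. Across all parts with both neighbours measured, the part minus the mean of its neighbours had a median of 0.146 in intron-side parts (109 parts, 71.6% above 0), 0.022 in between-site parts (144 parts) and 0.0031 in exon-end parts (534 parts). The part of an exon that is kept under either choice of donor would be the closest reference. For 3015 A5PSS parts (96.7%) the part numbered directly upstream is not among the parts listed for the gene, so the nearest listed rows stand in for it.

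Between-site parts, where the annotation already holds both donors, gave 7 calls among 263 tested (2.66%, below the 3.6% of all tested parts), 6 higher and 1 lower. The most extreme was Fcho1 E023, in a gene of clathrin-mediated endocytosis. This part of 4 bases with the GC boundary shown above rose by 1.06 (adjusted p = 0.00317), while its neighbours had -0.050 and 0.071 and no other of the gene's 30 tested parts was called, per the authors' deposited table. Next came 4 parts that overlap a 5′ untranslated region and are the first part listed for their gene. Ccdc102a E014 rose by 0.60 (adjusted p = 0.0133) and Iqcb1 E002, in a gene of the primary cilium, by 0.44 (adjusted p = 0.0488), per the authors' deposited table. Nek1 E002, in a kinase gene, rose by 0.32 (adjusted p = 0.0239) and Tnfaip1 E017, in a gene for an adaptor of Cullin-3 ubiquitin ligases, by 0.21 (adjusted p = 0.0178), per the authors' deposited table.

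The remaining between-site calls were small. Hnrnpk E025, a stretch of 9 bases in the gene of the RNA-binding protein hnRNP K, was the only between-site part called at both times, with 0.042 at 72 h (adjusted p = 0.000764) and 0.040 at 48 h (adjusted p = 0.000905) in the authors' deposited table. Gpi1 E011, in the gene of the glycolytic enzyme glucose-6-phosphate isomerase, had the lowest adjusted p of all A5PSS parts, 7.42e-07, for a fall of only -0.036 at 72 h in the authors' deposited table. Its neighbours had -0.042 and -0.024 and were called too, as were 10 of the 17 tested parts of the gene, so the part did not stand apart from its surroundings.

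Exon-end parts gave 18 calls among 747 tested (2.41%, below the 3.6% of all tested parts), 14 higher and 4 lower, and most were small. The exception was Prkar1b E012, in a regulatory subunit gene of protein kinase A, which rose by 1.14 (adjusted p = 0.0329) in the authors' deposited table. It is the first listed part of its gene and opens with GG, not with a donor. Lama5 E062, 4 bases in the laminin alpha 5 gene, rose by 0.24 (adjusted p = 0.0221) and Myst3 E020, in a histone acetyltransferase gene, by 0.20 (adjusted p = 0.0394), per the authors' deposited table. Cry2 E007, in a clock repressor gene, rose by 0.18 (adjusted p = 0.0254), against 0.083 and -0.0023 in its neighbours, per the authors' deposited table. Aim1l E002, of 2506 bases, rose by 0.16 (adjusted p = 0.0327) and Mknk2 E017, in a kinase gene that acts on the translation factor eIF4E, by 0.13 (adjusted p = 0.0207), per the authors' deposited table. The part after Aim1l E002 rose more, by 0.56, and 7 of the 19 tested parts of Aim1l were called. The part after Lama5 E062 was called too, at 0.17.

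A second set of exon-end calls lay below 0.1. Mvd E017, in a gene of cholesterol synthesis, had 0.091 (adjusted p = 0.0194), and Vars E005, in the valyl-tRNA synthetase gene, had 0.090 (adjusted p = 0.00103), per the authors' deposited table. Ccnf E007, a stretch of 40 bases in the cyclin F gene, was higher at both times, by 0.082 at 72 h (adjusted p = 0.00119) and by 0.077 at 48 h (adjusted p = 0.0111), per the authors' deposited table; no other of the gene's 13 tested parts was called at 72 h. Ctnnb1 E008, in the beta-catenin gene, had 0.047 (adjusted p = 0.0345) and Pabpc1 E024, in the poly(A)-binding protein gene, 0.028 (adjusted p = 0.000408), per the authors' deposited table. Rps27a E011, in a gene for ubiquitin fused to a ribosomal protein, had 0.050 (adjusted p = 0.000147), per the authors' deposited table. Ldha E001, in the lactate dehydrogenase A gene, had 0.034 (adjusted p = 0.00412), and Atp5c1 E017, in an ATP synthase subunit gene, 0.031 (adjusted p = 0.0196), per the authors' deposited table. Rps27a, Ldha and Atp5c1 have processed copies elsewhere in the genome, so how their reads were assigned is uncertain. Whether other called genes have such copies is not reported here.

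The 4 exon-end parts that fell differed in what their neighbours did. Cpsf1 E014, 18 bases in the gene of the largest subunit of the cleavage and polyadenylation specificity factor, was the only A5PSS part called lower at 48 h, with -0.12 (adjusted p = 0.0141), and had -0.11 at 72 h (adjusted p = 0.0255), per the authors' deposited table. It was the only call among the 33 tested parts of Cpsf1, and the parts beside it had -0.025 and -0.060 at 72 h. Dido1 E012, in a chromatin-reader gene, fell by 0.38 (adjusted p = 0.0349) in the authors' deposited table, but its neighbours fell by 0.37 and 0.42 and 13 of the gene's 16 tested parts were called, so it moved with a whole stretch of Dido1. Ckap2 E008, in a gene of the mitotic spindle, had -0.23 (adjusted p = 0.0393) and Sbf1 E007, in a pseudophosphatase gene, -0.13 (adjusted p = 0.0471), per the authors' deposited table.

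Among the 418 parts that could not be placed, 205 were tested and 6 were called (2.93%, against 3.6% of all tested parts), 4 higher and 2 lower. The part E035 listed under the joined name Mvp+2900092E17Rik+Prrt2 rose by 0.93 (adjusted p = 0.0179) in the authors' deposited table, and the part after it rose by 0.56. Its name joins several genes, so the gene it belongs to is uncertain. In 1810027O10Rik, E005, 5 bases wide, rose by 0.86 (adjusted p = 0.0362) while its neighbours had 0.0011 and -0.00040, per the authors' deposited table. Mt1 E002, in a metallothionein gene, rose by 0.24 (adjusted p = 0.00410), and Fgf4 E006, in a growth factor gene of pluripotent cells, by 0.077 (adjusted p = 0.0269), per the authors' deposited table. Zfp553 E002, in a zinc finger gene, fell with -0.50 (adjusted p = 0.0234) and Tmco1 E002, in a gene for a channel of the endoplasmic reticulum, with -0.063 (adjusted p = 0.0394), per the authors' deposited table.

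Across all 43 calls at 72 h, 26 parts had measured neighbours on both sides, and in 13 of these the part stood more than 0.3 above them, all in the higher direction. In 7 it differed from them by less than 0.1. The called part was the only call of its gene in 20 of 43 genes. The 14 called parts of 30 bases or less had 11 higher and 3 lower, the 19 of 31 to 300 bases 14 higher and 5 lower, and the 10 wider ones were all higher. The median log2 fold change at 72 h of all measured A5PSS parts was 0.0081 at 1 to 10 bases, 0.017 at 11 to 30, 0.021 at 31 to 100, 0.036 above 100 and up to 300, and 0.106 above 300 bases, while unclassified parts of the same widths had 0.0075, 0.0063, 0.0055, 0.0081 and 0.028. Width moved with kind: within intron-side parts the medians by width were 0.099, 0.053, 0.072, 0.163 and 0.232, and within exon-end parts they were 0.0023, 0.013, 0.020, 0.025 and 0.024. Keeping the frame made little difference, with a median of 0.025 in parts whose width is a multiple of 3 and 0.024 in the others.

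Position in the gene also moved with the change. With the listed parts of each gene cut into 4 equal bins from the 5′ to the 3′ end, A5PSS parts had medians of 0.049, 0.024, 0.017 and 0.0015 at 72 h, and parts of all other classes had 0.041, 0.018, 0.0032 and -0.020. In the most 3′ bin 2.80% of the A5PSS parts were called, 4 higher and 2 lower, against 4.38% of other parts, 337 higher and 1001 lower. Exon-end parts followed this slope, with medians of 0.041, 0.021, 0.0043 and -0.0098 from the first to the last bin. Intron-side parts had 0.137, 0.227, 0.244 and 0.128, so that in each bin they lay above the exon-end parts. Exon-end parts that overlap a 5′ untranslated region but no coding exon had a median of 0.094 (43 parts), and those that overlap a coding exon 0.014 (700 parts).

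**Figure D5:**
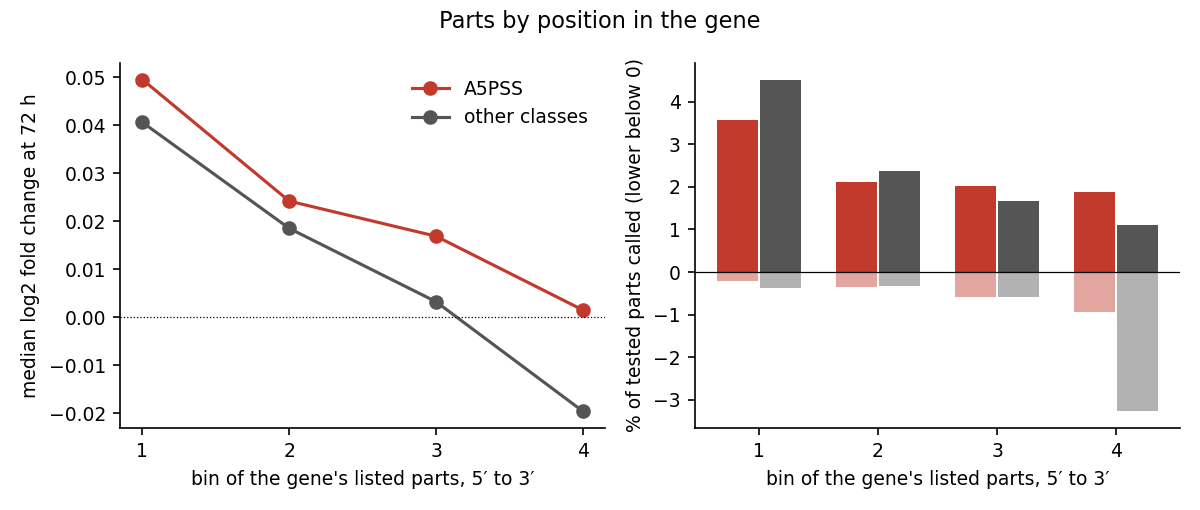
Median log2 fold change at 72 h (left, vertical axis) and percent of tested parts called higher (above 0) or lower (below 0, pale; right, vertical axis) by bin of a gene's listed parts from the 5′ to the 3′ end (horizontal axes), for A5PSS parts and all other classes. Both medians decline along the gene, to 0.0015 in A5PSS parts and -0.020 in other classes in the last bin.

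Detained introns lay near some A5PSS parts, and the values of both were set side by side. In 25 cases the row directly after the A5PSS part, touching it, was a detained intron, and 23 of these pairs had values at 72 h. The A5PSS part had a median of -0.0017 and the detained intron next to it 0.166, and both were above 0 in 10 of the 23. Most A5PSS parts in these pairs were exon-end parts. The only intron-side part with a value was Npr1 E005, at 0.017, so the pairs say little of intron-side parts. None of the A5PSS parts in these pairs was called. Intron-side parts had a median of 0.227 in genes that also have a measured detained intron (59 parts) and 0.127 in genes without one (111 parts). Of all A5PSS parts, 124 lay next to a called part of any class at 72 h. In that group 12 of the 76 tested were called (15.8%), against 1170 of 5296 tested parts of other classes next to a called part (22.1%).

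Genes with several A5PSS parts were read by the signs of their values. There were 430 such genes, holding 972 of the parts, and 130 had values for at least 2 of them at 72 h. All values were above 0 in 42 of these genes and below 0 in 21, and 67 (51.5%) had values on both sides of 0. Most of these values were uncalled, and 62.6% of all A5PSS values were above 0. Whether mixed signs were more or less frequent than among parts of different genes was not tested. Ints1, a gene of the Integrator complex, had the most, 7. Of these, 3 were measured at 72 h, with 0.19 in E067, 0.10 in E062 and 0.054 in E055, and none was called, per the authors' deposited table. Macf1, a cytoskeletal crosslinker, had 5 with values of 0.19 in E065 and -0.041 in E021, Cep192, a centrosome gene, had 5 with values from -0.055 to -0.033, and Ryr1, the calcium release channel of skeletal muscle, had 5 with no value, per the authors' deposited table. None of the parts in these 4 genes was called.

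Large differences also stood among parts that did not pass the test. At 72 h the highest were Atm E004 with 0.79 (adjusted p = 0.130), Aspg E014 with 0.77 (adjusted p = 0.264), Vill E002 with 0.75 (adjusted p = 0.124), Hbp1 E020 with 0.73 (adjusted p = 0.0589) and 1700003M07Rik E002 with 0.71 (adjusted p = 0.170), per the authors' deposited table. Among these, Atm E004, in the gene of the DNA damage kinase ATM, and Aspg E014 are intron-side parts. The lowest were Snrnp27 E009 with -0.62 (adjusted p = 0.0511), Snrpc E005 with -0.54 (adjusted p = 0.503), Stat5a E016 with -0.51 (adjusted p = 0.0997), Rassf2 E012 with -0.50 (adjusted p = 0.2998) and Pdcd2 E015 with -0.48 (adjusted p = 0.325), per the authors' deposited table. Stat5a E016, in the gene of a cytokine-activated transcription factor, is an intron-side part too. At 48 h far fewer parts were tested, and none of the 10 named for 72 h was among them, so the extremes of the 2 times cover unlike sets. At that time the highest uncalled parts were Aim1l E002 at 0.15, Vps36 E002 at 0.14 and Ints1 E062 at 0.12, and the lowest Eml2 E020 at -0.13, Ninl E006 at -0.13 and Nsun5 E016 at -0.11, per the authors' deposited table.

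The parts tested at both times were compared on their own. There were 407 of them, with medians of 0.0077 at 72 h and 0.0086 at 48 h over the 403 with both values. Of these, 16 were called at 72 h (3.93%), against 5.77% of all 42340 parts tested at both times. All 3 parts called at 48 h were called again at 72 h in the same direction. Both times were set against the same libraries in doxycycline, so this is not a repeat in independent cells. The other 27 calls at 72 h came from the 990 parts with no adjusted p at 48 h (2.73%), whose median at 72 h was 0.045.

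Genes of U1 and its partners, SR and hnRNP proteins, the tri-snRNP and the minor spliceosome were read as a list of 61. Of these, 58 were in the table, and not all of them act only at the 5′ splice site. The list was chosen with earlier results of these data known. At 72 h, 25 of the 57 with a tested part (43.9%) had at least 1 called part of any class, against 19.1% of all tested genes, and 20 had a part that rose and 15 a part that fell. Over parts, 67 of 577 (11.6%) were called, against 3.6% of the whole table. List genes had a median of 8 tested parts, against 7 in all genes. The median log2 fold change over the parts of the list was 0.0029. At 48 h, 7 of 52 genes (13.5%) had a called part, against 7.12% of all tested genes, and 9 of 392 parts (2.3%) were called, against 1.62% of all tested parts.

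The lowest adjusted p-values on the list at 72 h belonged to the SR proteins, the repressor PTB and the tri-snRNP. Srsf6 E003, a cassette exon, rose by 0.54 (adjusted p = 4.57e-11), and Srsf2 E010 rose by 0.37 (adjusted p = 1.48e-09), per the authors' deposited table. Genes of SR proteins are known for exons and introns that send their own RNA to decay. Ptbp1 E001, a first exon, rose by 0.18 (adjusted p = 4.4e-10), per the authors' deposited table. Among tri-snRNP genes, Snrnp200 E004 rose by 0.11 (adjusted p = 3.04e-08) and Prpf4 E001 by 0.25 (adjusted p = 1.38e-06), while Prpf31 E010, a terminal exon, had -0.52 (adjusted p = 2.92e-06), per the authors' deposited table. At 48 h the lowest were Ptbp1 E008 with 0.066 (adjusted p = 2.25e-06), Srsf2 E013 with 0.11 (adjusted p = 5.07e-06), Srsf3 E001 with 0.075 (adjusted p = 0.000310) and Prpf4 E002 with 0.15 (adjusted p = 0.00255), per the authors' deposited table. Luc7l E026, an intronic polyadenylation part in a gene of a U1 partner, had -0.17 (adjusted p = 0.0103) and Hnrnpa2b1 E045 -0.17 (adjusted p = 0.0374) at 48 h, per the authors' deposited table.

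The list genes carry few A5PSS parts of their own: 12 in 9 genes, of which 8 were tested at 72 h and none was called. The 2 lowest have been named above: Snrnp27 encodes a tri-snRNP protein, and Snrpc encodes the U1-C protein that steadies the pairing of U1 with the 5′ splice site. The parts of Snrnp70, the U1-70K gene, and Snrnp200 had -0.030 and 0.0088 at 72 h, and those of Snrpd2, a core protein gene, and Rnpc3, a gene of the minor spliceosome, -0.099 and 0.24, per the authors' deposited table. Of 12 marker genes of embryonic stem cells, 11 had parts in the table and 9 had a tested part at 72 h; levels of gene expression cannot be read from relative use.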

How the data were processed

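Polyadenylated RNA of 12 libraries was sequenced by the authors, and 1 table of their own comparison was used. DEXSeq was the authors' tool for the exon parts, per the file headers, and the submitters' processing notes name STAR 2.4.1d and mm9. The sources used here do not give the DEXSeq version, the use of clone as a term, any shrinkage or the annotation behind the parts. Adjusted p-values and log2 fold changes are as deposited by the authors, and an adjusted p below 0.05 was a call. Parts with no adjusted p were not tested. Python 3.11.15 with pandas 2.3.3 was used. A gene's parts were placed against GENCODE M21 where at least 2 exons of at least 20 bases had equal widths at 1 distance. This step was tested on simulated parts in shifted copies of genes from the same annotation. Between-site parts and parts built from another annotation were not simulated. Gene names matched for 2554 of 2575 names, 208 of them through older names in a RefSeq table of GRCm38.p6; 22 names that a spreadsheet had turned into dates were restored from part identifiers. Members and lists were chosen with earlier results of these data known, and the kinds of part were defined after the table had been seen. Named parts were all called members, the 5 highest and 5 lowest uncalled ones at 72 h, 3 and 3 at 48 h, and up to 6 list genes per time by adjusted p; members next to called parts and in genes with fewer than 5 members are given as counts. The alternatives were other thresholds, a minimum fold, 1 part per gene and other ways to summarise; with no values per library, depth, spread and refits could not be had. The labels call the libraries of a clone biological duplicates.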

Additional observations from a re-analysis of the deposited data

How the results depend on the processing

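No paired analysis was possible because the table holds no values per library, and for the same reason no replicate could be left out. With an adjusted p below 0.01 the calls numbered 1 at 48 h and 12 at 72 h, and with one below 0.1 they numbered 10 and 67. A log2 fold change of at least 0.2 left 0 at 48 h and 25 at 72 h. Only parts tested at both times gave 16 at 72 h, and genes in which no other part was called gave 20, an alternative chosen after seeing the data. The mean in place of the median was 0.053 at 72 h. The median of exon-end parts was 0.028 without those tested at 48 h and 0.010 after the median of the gene's other parts was taken off, both chosen after seeing the data. Intron-side parts had medians from 0.126 (300 bases or less) to 0.185 (without first listed parts) under the 7 alternatives run. List genes with a call numbered 4 at 48 h and 15 at 72 h below 0.01, and 14 at 48 h below 0.1. Of the 43 parts named as called at 72 h, 31 lost the call at 0.01. No median changed sign under the alternatives run. Counts and named parts could not change direction, since the alternatives alter only which parts are counted or called. An adjusted p was given for 13.4% of the intron-side parts at 72 h, and with no counts in the table the reason was not tested.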
